A study of Mus musculus with 8 samples.

Results

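The insulin-like growth factor (IGF) family was followed in retina of rd10 mice, which carry a defect of the rod phosphodiesterase gene Pde6b and lose their photoreceptors, rods before cones. The members were the 9 genes Igf1, Igf2, Igf1r, Igf2r, Igfbp2, Igfbp3, Igfbp4, Igfbp5 and Igfbp7, taken by gene name from a table of 54532 genes, and each name had 1 row. RNA was sequenced from 4 libraries of a group labelled sIVs (libraries 2 to 5), which the title spells out as small intracellular vesicles, and 4 libraries of a control group labelled PBS (libraries 1 to 4), read here as phosphate-buffered saline. Both groups were rd10, with no library of a wild-type retina analysed here. Vesicle source, dose, route, age, sex and sampling time are not stated in the labels, and the labels call the libraries replicate biosamples without tying each to 1 animal; the p-values below therefore speak of library-to-library spread.

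IGF-1 and IGF-2 are secreted peptides related to insulin. Both activate the tyrosine kinase receptor encoded by Igf1r, whereas the product of Igf2r, also the mannose 6-phosphate receptor, takes IGF-2 into lysosomes and does not signal as a kinase. The IGF binding proteins hold most extracellular IGF, protect it from breakdown and either block or aid its delivery to the receptor. The product of Igfbp7 is a relative that binds IGF weakly and is abundant in blood vessel walls. In retina, IGF-1 is known for its roles in vessel growth and in neuron survival.

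Depth was similar, with 15039385 to 16989737 counts in sIVs libraries and 14640235 to 15948291 counts in PBS libraries. The samples carried rod markers of retina in every library (values in CPM, read counts scaled to library size). sIVs libraries 3 and 4 stood apart from the other 6: their 7 rod markers summed to 7347 and 6921 CPM, against 33486 and 26635 CPM in sIVs libraries 2 and 5 and 29455 to 36007 CPM in PBS. In bulk tissue, fewer cells of a type and less RNA per cell cannot be told apart. Results are therefore also given without sIVs libraries 3 and 4, and without sIVs library 2, the sIVs library with the highest rod marker sum. Over all genes, sIVs library 2 and PBS library 1 were the closest pair of libraries, so leaving out sIVs library 2 removes the sIVs library most like PBS.

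The start regions of Igfbp7, Igfbp2 and Igfbp3 are shown because these 3 members had the largest positive log2 fold changes in the family. Each sequence comes from RefSeq on GRCm38.p6 and covers 250 bases before to 50 after an annotated start, written 5′ to 3′ on the gene's strand. Both strands were searched for 6 motifs, and capitals mark the matching letters. The GC box was spelled GGGCGG and the E-box of the MYC type CACGTG. For the TATA box the letters were TATAAA, and for the CCAAT box those of its name. The AP-1 motif was TGANTCA, and that of STAT factors was TTCNNNGAA. No marked match in these windows overlapped another. They are Igfbp7 (chr5:77407996-77408295, minus strand), the first of 2 annotated starts of Igfbp2 (chr1:72824230-72824529, plus strand) and Igfbp3 (chr11:7213874-7214173, minus strand).
Igfbp7: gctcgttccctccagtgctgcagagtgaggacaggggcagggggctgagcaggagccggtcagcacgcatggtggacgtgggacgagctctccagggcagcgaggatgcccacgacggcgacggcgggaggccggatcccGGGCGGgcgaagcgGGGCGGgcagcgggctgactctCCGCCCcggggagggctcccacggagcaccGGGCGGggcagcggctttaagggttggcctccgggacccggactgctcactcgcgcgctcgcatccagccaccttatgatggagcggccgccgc
Igfbp2: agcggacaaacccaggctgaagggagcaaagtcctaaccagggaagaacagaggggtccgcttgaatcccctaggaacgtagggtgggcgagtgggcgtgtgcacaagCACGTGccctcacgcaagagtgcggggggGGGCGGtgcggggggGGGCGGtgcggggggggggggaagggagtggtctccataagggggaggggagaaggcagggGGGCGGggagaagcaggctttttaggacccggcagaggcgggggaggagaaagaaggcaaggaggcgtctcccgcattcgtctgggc
Igfbp3: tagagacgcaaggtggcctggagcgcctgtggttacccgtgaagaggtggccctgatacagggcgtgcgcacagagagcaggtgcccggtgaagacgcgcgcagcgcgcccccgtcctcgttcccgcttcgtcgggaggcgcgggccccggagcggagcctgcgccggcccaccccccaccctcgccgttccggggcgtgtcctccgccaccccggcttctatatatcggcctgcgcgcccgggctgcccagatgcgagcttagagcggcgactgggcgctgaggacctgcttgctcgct
The Igfbp7 window held 4 GC boxes and the Igfbp2 window held 3 GC boxes and 1 E-box. The window of the second Igfbp2 start, not shown, held no GC box or E-box and 1 AP-1 motif. The Igfbp3 window held none of the 6 motifs. Among the other members, windows of Igf1r, Igf2r and Igf2 held GC boxes, and those of Igf1, Igfbp4 and Igfbp5 held none. A GC box was present in 35.7%, the E-box in 7.15% and the AP-1 motif in 7.81% of 32851 start windows of the same length. The Igfbp7, Igfbp2 and Igfbp3 windows held 33, 18 and 37 CpG dinucleotides, against a median of 7.0 over those windows. A letter match is a description and not a measured binding site.

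Across the family, 0 of 9 members passed the edgeR quasi-likelihood test after Benjamini-Hochberg adjustment over 17725 tested genes (adjusted p from 0.185 to 0.925), and the share of all genes called was 0%. All 9 passed the filter on low counts. At an unadjusted p under 0.05, 2 members were higher in sIVs (Igfbp7 and Igfbp2) and 0 lower, against 15.2% of all tested genes in either direction, 9.61% higher and 5.63% lower. DESeq2 called 1 member, Igfbp7 (3.22% of all genes), limma-voom called 0 members, and limma-voom with sample quality weights called 3 members (Igfbp7 and Igfbp2 higher, Igf1r lower), where it called 28.1% of all genes. The median log2 fold change of the 9 was 0.08, beside -0.01 over all tested genes, with 7 members positive and 2 negative.

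**Figure D1:**
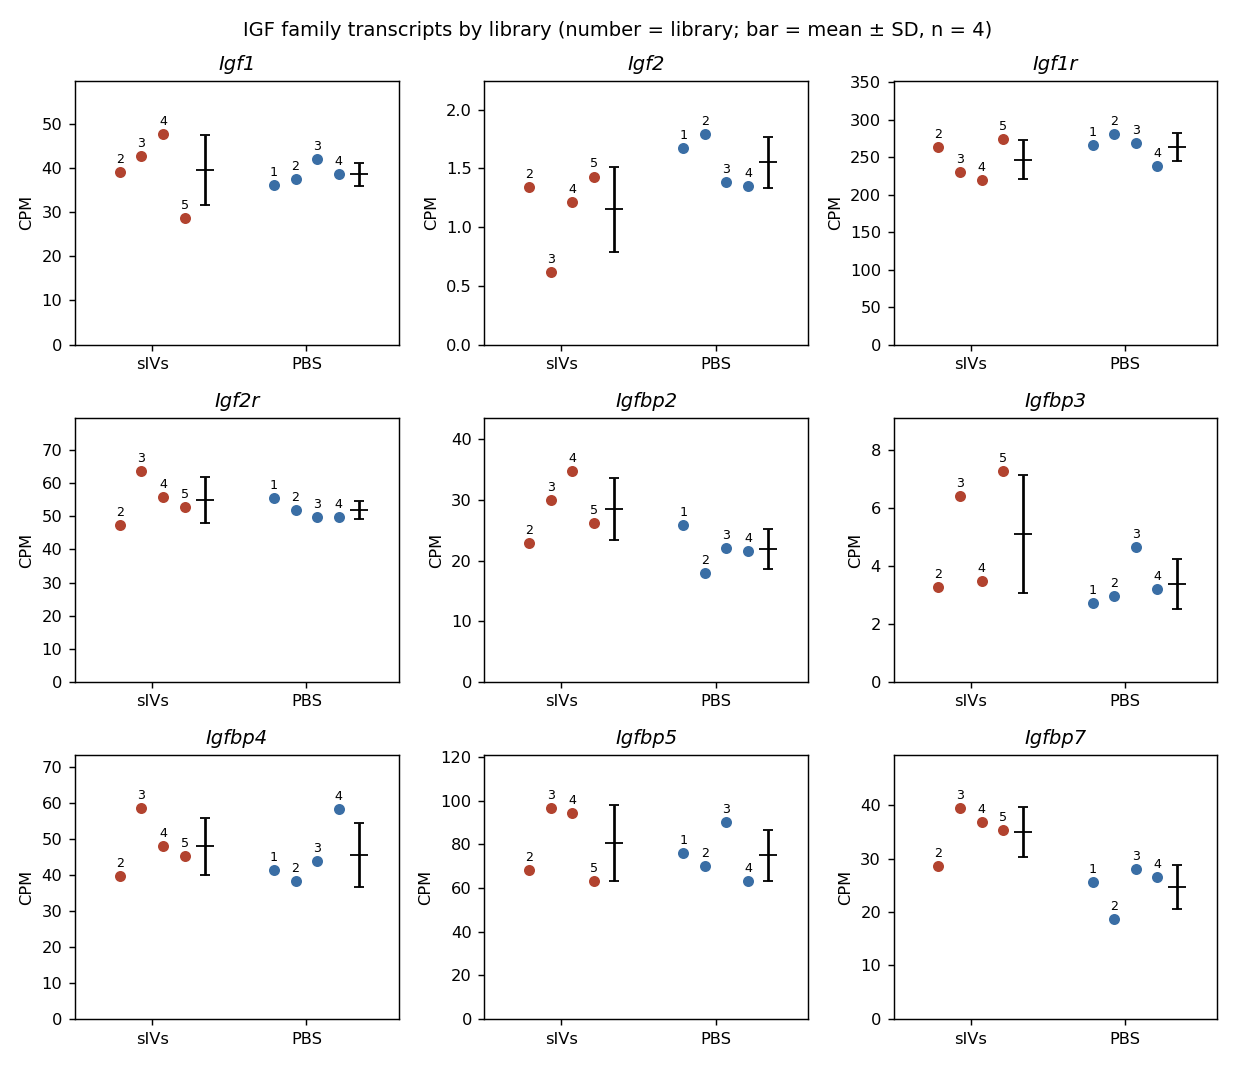
CPM (linear axis from 0) of each of the 9 genes in the 4 sIVs and 4 PBS libraries, with points numbered by library and bars giving the mean ± SD (n = 4 each). Igfbp7 is the gene whose sIVs points, 28.5 to 39.5 CPM, lie wholly above its PBS points, 18.7 to 28.0 CPM.

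Igfbp7 was the family member with the smallest p (ENSMUSG00000036256, GRCm38 chromosome 5, 77349240 to 77408041, minus strand). It stood at 28.5, 39.5, 36.9 and 35.3 CPM in sIVs libraries 2 to 5, against 25.6, 18.7, 28.0 and 26.6 CPM in PBS libraries 1 to 4. All 4 sIVs libraries lay above every PBS library, sIVs library 2 by a narrow margin over PBS library 3. Igfbp7 averaged 35.0 ± 4.67 CPM in sIVs and 24.7 ± 4.14 CPM in PBS (SD, n = 4 each). The log2 fold change was 0.51 ± 0.14 (SE, 95% interval 0.19 to 0.82), 1.42-fold, with an edgeR adjusted p of 0.185. Groups without overlap and higher in sIVs were found in 4.42% of all tested genes. Without sIVs library 2 the log2 fold change of Igfbp7 was 0.59 (edgeR adjusted p = 0.0323, in a comparison that called 7.39% of all genes). That library was the lowest sIVs library for Igfbp7, so leaving it out raises the difference by construction. Without sIVs libraries 3 and 4 the log2 fold change was 0.37 (edgeR adjusted p = 0.321, with 0.0164% of all genes called). Without PBS library 2, the lowest PBS library, it was 0.39 (edgeR adjusted p = 0.342, with 0% of all genes called). At its 3′ end Igfbp7 shares 85 bases with Polr2b on the other strand, which stood at 114.45 to 127 CPM in sIVs and 120.03 to 135 CPM in PBS (edgeR adjusted p = 0.623).

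Vessel cell markers were read beside Igfbp7. The 6 endothelial markers summed to 174.5, 197, 218 and 192.5 CPM in sIVs libraries 2 to 5, against 173, 166, 176 and 192 CPM in PBS libraries 1 to 4, and 0 of 6 separated the groups. All 6 had a positive log2 fold change, from 0.09 for Flt1 to 0.37 for Ly6c1 (adjusted p by edgeR 0.677 and 0.512). Igfbp7 equalled 16.3%, 20.0%, 16.9% and 18.4% of that endothelial sum in sIVs libraries 2 to 5, against 14.8%, 11.3%, 15.9% and 13.8% across PBS libraries 1 to 4, without overlap between the groups. Igfbp7 alone already separated the groups, so the ratio is not a separate result. The 6 markers of pericytes and smooth muscle summed to between 143 and 192 CPM in sIVs and between 139.5 and 174 CPM in PBS. Of their log2 fold changes only that of Rgs5 was negative (-0.08), and that of Acta2 was the largest, at 0.93 (edgeR adjusted p = 0.249). The part of vessel cells in the Igfbp7 difference was not tested. The 5 reactive glia markers summed to 811 to 2154 CPM in sIVs and 339.9 to 756 CPM in PBS. Of these, 3 of 5 lay above every PBS library in all 4 sIVs libraries, beside 4.42% of all tested genes. The part of reactive glia in the Igfbp7 difference was not tested. Igfbp7 equalled 3.52%, 1.95%, 1.71% and 2.74% of the reactive glia sum in sIVs libraries 2 to 5, against 3.38%, 2.55%, 4.99% and 7.83% across PBS libraries 1 to 4. That ratio overlapped between the groups and had its 2 lowest values in sIVs libraries 3 and 4. The reactive glia sum varied more between libraries than Igfbp7 did, so the ratio mainly follows that sum.

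Igfbp2, a binding protein gene with a preference for IGF-2 (ENSMUSG00000039323, chromosome 1, 72824503 to 72852474, plus strand), followed. It stood at 22.9, 29.9, 34.8 and 26.1 CPM in sIVs libraries 2 to 5, against 25.9, 18.0, 22.1 and 21.6 CPM in PBS libraries 1 to 4. Libraries 3 and 4 of sIVs were clearly above PBS, library 5 lay just above PBS library 1, and library 2 lay within the PBS range. The log2 fold change was 0.38 ± 0.15 (SE, 95% interval 0.05 to 0.71, edgeR adjusted p = 0.283). It was 0.16 without sIVs libraries 3 and 4 and 0.47 without sIVs library 2 (adjusted p by edgeR 0.654 and 0.0784).

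Igfbp3 encodes the main IGF carrier of blood (ENSMUSG00000020427, chromosome 11, 7206086 to 7213923, minus strand). It was low, at 3.28, 6.40, 3.48 and 7.28 CPM in sIVs libraries 2 to 5, against 2.70, 2.95, 4.65 and 3.20 CPM in PBS libraries 1 to 4. The sIVs libraries 3 and 5 stood above PBS, and the other pair overlapped it, so that the high libraries were not the same ones as for Igfbp2. Its sIVs libraries had 49 to 122 counts and its PBS libraries 42 to 67. The log2 fold change of 0.60 ± 0.30 (SE) was the largest of the 9 and had an interval of -0.08 to 1.28 (edgeR adjusted p = 0.383). Leaving out sIVs library 5, the highest library, gave 0.38 (edgeR adjusted p = 0.514), whereas leaving out sIVs libraries 3 and 4 gave 0.65.

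Igfbp5 and Igfbp4 overlapped between the groups. Igfbp5, whose product is held in the extracellular matrix (ENSMUSG00000026185, chromosome 1, 72857932 to 72874884, minus strand), stood at 68.2, 96.7, 94.2 and 63.0 CPM in sIVs libraries 2 to 5, against 76.1, 70.2, 90.3 and 63.1 CPM in PBS libraries 1 to 4. Its log2 fold change was 0.10 ± 0.16 (SE, 95% interval -0.25 to 0.46, edgeR adjusted p = 0.788), and it turned to -0.19 without sIVs libraries 3 and 4. Libraries 3 and 4 of sIVs were the highest of all 8, library 2 lay below 3 of the 4 PBS libraries, and library 5 lay marginally below all 4. Igfbp4, whose product is cut by the protease PAPP-A to release IGF (ENSMUSG00000017493, chromosome 11, 99041244 to 99054392, plus strand), stood at 39.6, 58.6, 48.1 and 45.3 CPM in sIVs libraries 2 to 5, against 41.5, 38.4, 43.8 and 58.3 CPM in PBS libraries 1 to 4. The highest library of each group was thus at nearly the same value. The log2 fold change of Igfbp4 was 0.08 ± 0.15 (SE, 95% interval -0.26 to 0.41, edgeR adjusted p = 0.846), and it turned to -0.10 without sIVs libraries 3 and 4 and to -0.04 without sIVs library 3.

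**Figure D2:**
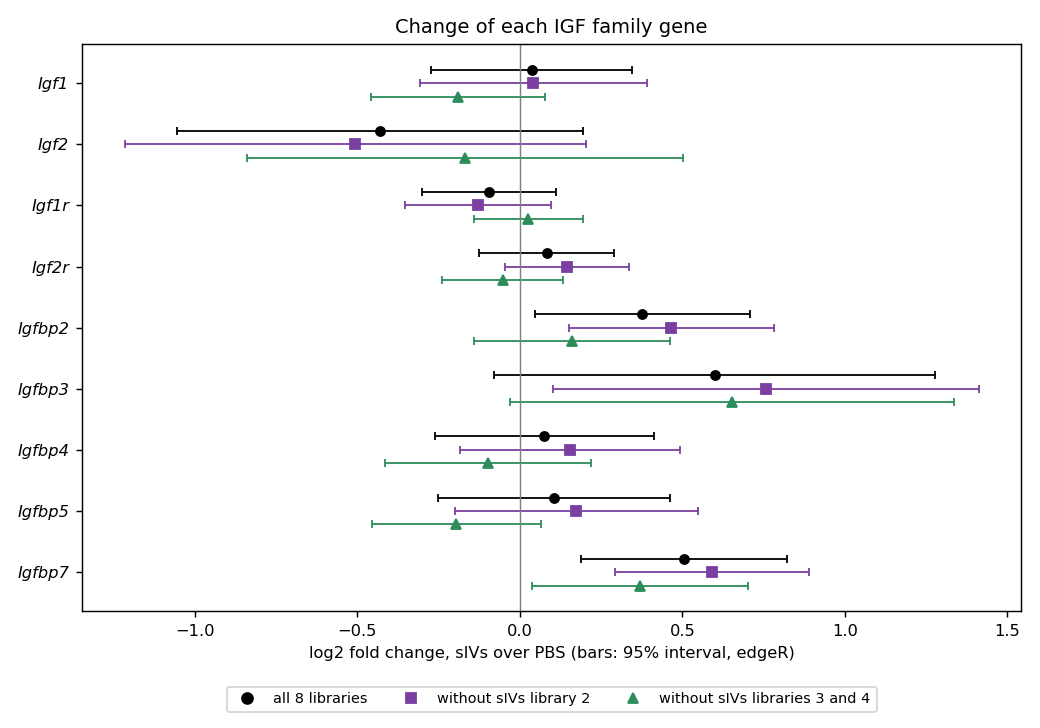
Log2 fold change of sIVs over PBS for each gene with its 95% interval (edgeR), from all 8 libraries, without sIVs library 2, and without sIVs libraries 3 and 4. Igfbp7 keeps an interval above 0 in all 3 fits, with values of 0.51, 0.59 and 0.37, and Igf1, Igf1r, Igf2r, Igfbp4 and Igfbp5 change sign when sIVs libraries 3 and 4 are left out.

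Igfbp2 and Igfbp5 lie tail to tail on chromosome 1, with 5457 bases between them, and Igfbp3 lies tail to tail with Igfbp1 on chromosome 11, 3539 bases apart. The neighbours Igfbp2 and Igfbp5 had a Pearson r of 0.58 across the 8 libraries, whereas Igfbp2 and the unlinked Igfbp7 had one of 0.87. These coefficients are a description over 8 libraries, among them sIVs libraries 3 and 4 with their low rod marker sums. Igfbp1 was below the filter on low counts, at 0.67, 0.56, 0.44 and 1.01 CPM in sIVs libraries 2 to 5 and 0.28 to 0.50 CPM in PBS.

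The composition of the binding protein transcripts was compared per length, in FPKM (fragments per kilobase of gene length, scaled to library size, as the authors deposited it). Summed over Igfbp1 to Igfbp7, their level was 59.6, 81.5, 79.0 and 68.1 FPKM in sIVs libraries 2 to 5, against 59.6, 47.9, 63.7 and 60.1 FPKM in PBS libraries 1 to 4. Igfbp7 took 39.6%, 39.8%, 38.5% and 42.8% of that sum in sIVs libraries, against 35.4%, 32.1%, 36.3% and 36.3% in PBS libraries. Igfbp4 took 13.7% to 16.2% of it in sIVs and 15.6% to 21.8% in PBS, and Igfbp5 15.4% to 19.8% in sIVs and 17.3% to 24.3% in PBS. The share of Igfbp7 separated the groups, as its level already did, and those of Igfbp4 and Igfbp5 overlapped, with lower means in sIVs. The mean share of Igfbp2 was 21.3% in sIVs and 20.5% in PBS. Shares are parts of a whole, so a larger Igfbp7 share lowers the rest. The mean FPKM itself was higher in sIVs for Igfbp4 (10.8 against 10.3 in PBS) and for Igfbp5 (13.4 against 12.4 in PBS).

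Among the ligand genes, Igf1 was similar in mean between groups and uneven among sIVs libraries (ENSMUSG00000020053, chromosome 10, 87858265 to 87937042, plus strand). It stood at 39.0, 42.6, 47.7 and 28.8 CPM in sIVs libraries 2 to 5, against 36.1, 37.5, 42.1 and 38.6 CPM in PBS libraries 1 to 4. The sIVs libraries held both the highest and the lowest value of all 8. The coefficient of variation of Igf1 was 20.3% in sIVs and 6.64% in PBS. Its log2 fold change was 0.04 ± 0.14 (SE, 95% interval -0.27 to 0.35, edgeR adjusted p = 0.925), and it turned to -0.19 without sIVs libraries 3 and 4.

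Microglia are known to make IGF-1, and Müller glia span the retina. The 7 microglia and macrophage markers summed to 133, 276, 328 and 101 CPM in sIVs libraries 2 to 5, the same order of libraries as Igf1, against 171, 147, 175 and 118 CPM in PBS libraries 1 to 4. The 7 Müller glia markers ordered the sIVs libraries in the same way, at 4265, 4805, 5265 and 2980 CPM, against 5066, 4723, 5906 and 6303 CPM in PBS libraries 1 to 4. Neither sum ordered the PBS libraries as Igf1 did. Both sums hide members that differ in direction. In each list, 0 of 7 markers lay wholly above PBS (4.42% of all tested genes) and 1 of 7 wholly below it (3.36%). Those were Glul among the Müller glia markers, at a log2 fold change of -0.96 (edgeR adjusted p = 0.153), and P2ry12 among the microglia markers, at -0.64 (edgeR adjusted p = 0.223), both named after their values were seen. The Müller glia marker Kcnj10 was at 0.73 in the same comparison (edgeR adjusted p = 0.346). Igf1 equalled 29.3%, 15.4%, 14.55% and 28.5% of the microglia marker sum in sIVs libraries 2 to 5, against 21.1%, 25.5%, 24.1% and 32.7% across PBS libraries 1 to 4. Relative to these markers Igf1 was lowest in sIVs libraries 3 and 4, where the markers were highest. The marker sum varied more (101 to 328 CPM) than Igf1 did (28.8 to 47.7 CPM), so the ratio mainly follows the marker sum. The part of either cell type in the Igf1 values was not tested.

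Igf2, an imprinted gene expressed mainly from the paternal allele (ENSMUSG00000048583, chromosome 7, 142650766 to 142666816, minus strand), was the lowest member. It had 20, 10, 22 and 24 counts in sIVs libraries 2 to 5, against 26, 28, 20 and 19 counts in PBS libraries 1 to 4. In CPM these were 1.34, 0.62, 1.22 and 1.43 in sIVs, against 1.67, 1.80, 1.39 and 1.35 in PBS. sIVs library 3 lay far below the rest, and the other 3 sIVs libraries lay near the lower PBS libraries. The log2 fold change was -0.43 ± 0.28 (SE, 95% interval -1.05 to 0.19, edgeR adjusted p = 0.492), and -0.23 without sIVs library 3. The counts were low, and the 95% interval leaves room for a decrease or a small increase of Igf2. Igf2 shares 7124 bases with Igf2os on the opposite strand, which stood at 0.31 to 2.27 CPM in sIVs and 0.69 to 1.15 CPM in PBS. Because the strand setting of the counting is not given, reads of Igf2 and Igf2os cannot be told apart with certainty. On the same strand, Gm49394 shares 16048 bases with Igf2 and had no counts in any library. How reads from bases shared by Igf2 and Gm49394 were counted is not given, so the level of Igf2 may be understated.

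The receptor gene Igf1r was the most abundant member in CPM (ENSMUSG00000005533, chromosome 7, 67952827 to 68233668, plus strand). It stood at 263, 230.1, 219.5 and 274 CPM in sIVs libraries 2 to 5, against 266, 281, 269 and 238 CPM in PBS libraries 1 to 4. Libraries 3 and 4 of sIVs lay just below the lowest PBS library, and the other pair lay within PBS. The log2 fold change was -0.09 ± 0.09 (SE), and the 95% interval of -0.30 to 0.11 leaves room for a decrease of up to that size (edgeR adjusted p = 0.658). It turned to 0.03 without sIVs libraries 3 and 4.

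Igf2r, the clearance receptor gene (ENSMUSG00000023830, chromosome 17, 12682406 to 12769664, minus strand), stood at 47.3, 63.7, 55.7 and 52.7 CPM in sIVs libraries 2 to 5, against 55.6, 51.8, 49.9 and 49.9 CPM in PBS libraries 1 to 4. The groups overlapped, with sIVs library 3 highest and sIVs library 2 lowest. Its log2 fold change was 0.08 ± 0.09 (SE, 95% interval -0.13 to 0.29, edgeR adjusted p = 0.705), and it turned to -0.05 without sIVs libraries 3 and 4. Airn, the noncoding RNA that runs antisense through Igf2r and silences its paternal copy in many mouse tissues, shares 28354 bases with it. Airn stood at 5.29, 5.16, 5.25 and 5.19 CPM in sIVs libraries 2 to 5, against 8.50, 6.61, 7.29 and 6.33 CPM in PBS libraries 1 to 4. All sIVs libraries lay below PBS, as was the case for 3.36% of all tested genes, and the log2 fold change of Airn was -0.46 ± 0.14 (SE, edgeR adjusted p = 0.203). Per length, Igf1r exceeded Igf2r 3.09, 2.00, 2.18 and 2.88 times in sIVs libraries 2 to 5, against 2.65, 3.01, 2.99 and 2.64 times across PBS libraries 1 to 4. The ratio was lowest in sIVs libraries 3 and 4 and otherwise overlapped between groups.

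**Figure D3:**
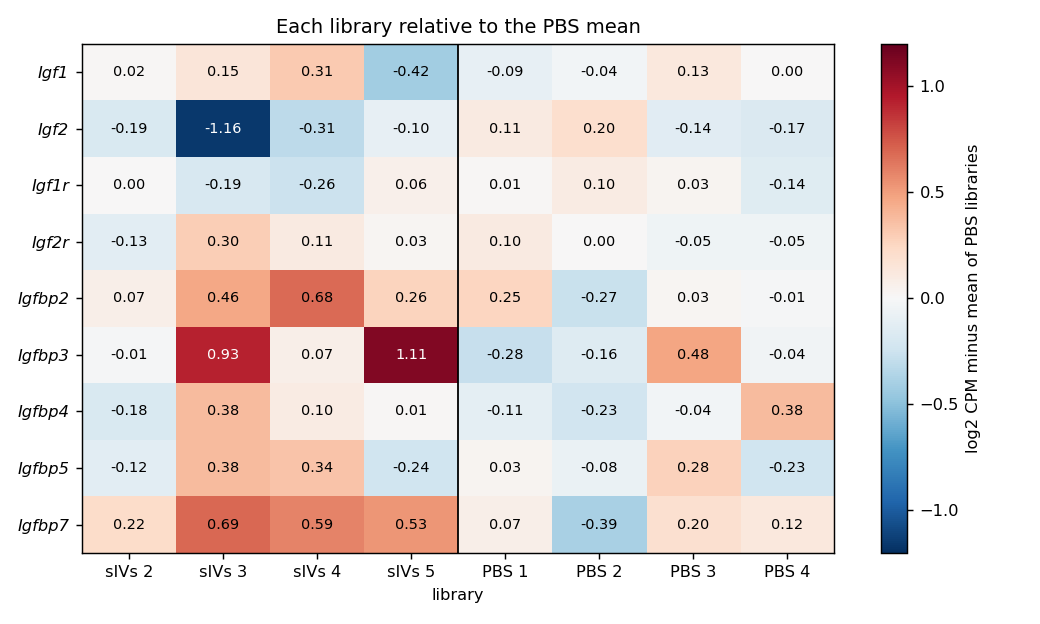
Log2 CPM of each gene in each library minus the mean of the PBS libraries, with the value printed in each cell. Igfbp7 is positive in all 4 sIVs libraries, from 0.22 to 0.69, and the lowest cell is Igf2 in sIVs library 3, at -1.16.

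Relative to the PBS mean, most member values lay within the spread of all genes. The middle 90% of all tested genes ran from -0.85 to 0.99 in sIVs library 3 and from -0.93 to 1.00 in sIVs library 4 on the log2 scale, against -0.42 to 0.48 in sIVs library 2, -0.66 to 0.60 in sIVs library 5 and at most -0.43 to 0.37 in PBS libraries. In sIVs library 3, Igf2 at -1.16 lay outside that range. In sIVs library 5, Igfbp3 at 1.11 lay outside it. The other members lay within it in every sIVs library. In PBS library 2, Igfbp7 at -0.39 lay below the range, which began at -0.34. Igfbp3 in PBS library 3, at 0.48, lay above an upper end of 0.36. Igfbp4 in PBS library 4, at 0.377, lay just above an upper end of 0.366.

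Levels per length placed the members in the same order at both ends in both groups. In FPKM, Igfbp7 averaged 28.9 ± 3.79 in sIVs and 20.4 ± 3.41 in PBS, and Igf1r averaged 14.7 ± 1.57 in sIVs and 15.6 ± 1.13 in PBS (SD, n = 4 each). Igfbp2 averaged 15.4 ± 2.74 FPKM in sIVs and 11.8 ± 1.76 FPKM in PBS, Igfbp5 13.4 ± 2.87 FPKM in sIVs and 12.4 ± 1.95 FPKM in PBS, and Igfbp4 10.8 ± 1.77 FPKM in sIVs and 10.3 ± 1.96 FPKM in PBS. These 5 genes overlapped with their neighbours in the PBS order. Below them came Igf2r, at 5.88 ± 0.72 FPKM in sIVs and 5.55 ± 0.30 FPKM in PBS, then Igf1, at 3.98 ± 0.81 FPKM in sIVs and 3.88 ± 0.26 FPKM in PBS. Igfbp3, at 1.63 ± 0.64 FPKM in sIVs and 1.08 ± 0.28 FPKM in PBS, and Igf2, at 0.20 ± 0.06 FPKM in sIVs and 0.27 ± 0.04 FPKM in PBS, closed the order. From Igfbp4 downward each neighbouring pair was separate in both groups. At the top, Igfbp7 was separate from the next gene in sIVs and overlapped Igf1r in PBS. Igf1 exceeded Igf2 between 11.6 and 39.6 times in sIVs and between 12.1 and 17.5 times in PBS, on the FPKM scale.

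**Figure D4:**
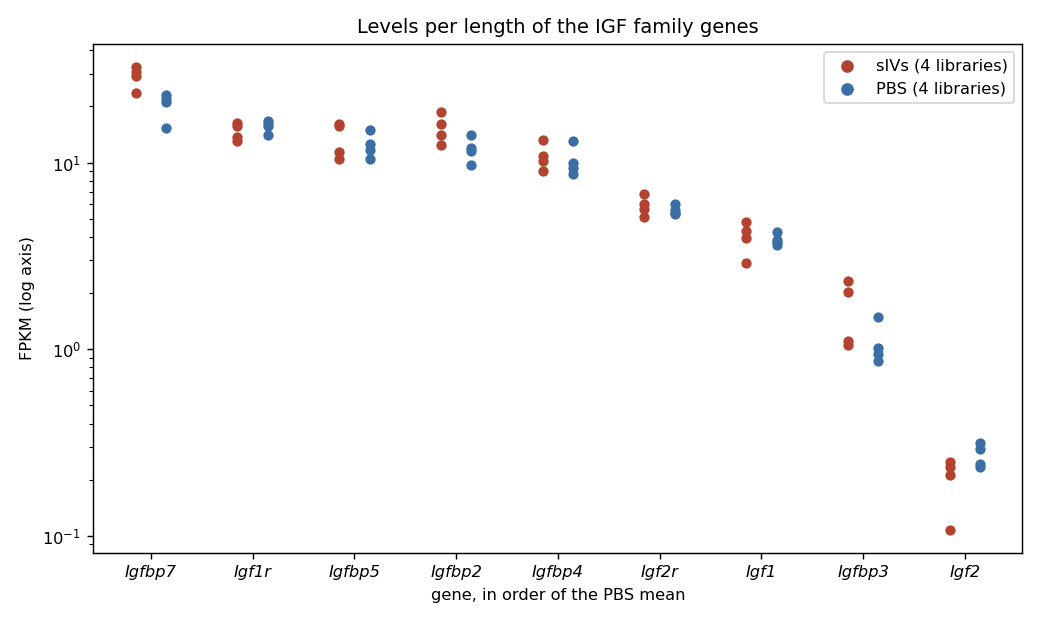
FPKM (log axis) of each gene in each of the 4 sIVs and 4 PBS libraries, with genes in the order of their PBS mean. Igfbp7 is highest, with sIVs means of 28.9 FPKM and PBS means of 20.4 FPKM, and Igf2 is lowest, with 0.20 FPKM in sIVs and 0.27 FPKM in PBS.

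Other genes of IGF and insulin signalling were read from a list of 51 genes, of which 46 were tested. Of these 46, 0 passed edgeR after adjustment over all genes, 23 had a positive and 23 a negative log2 fold change, and their median was -0.01, beside -0.01 over all tested genes. At an unadjusted p under 0.05, 9 were higher and 2 lower in sIVs, beside 9.61% and 5.63% of all genes. The groups did not overlap for 6 genes higher and 3 lower in sIVs, beside 4.42% and 3.36% of all tested genes. DESeq2 called 5 of the 46, where it called 3.22% of all genes, and limma-voom called 0, with 0% of all genes. With sample quality weights limma-voom called 15 of the 46, where it called 28.1% of all genes.

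The insulin receptor gene Insr stood at 136 to 152 CPM in sIVs and 142 to 148.5 CPM in PBS, with a 95% interval of -0.13 to 0.14 for its log2 fold change (edgeR adjusted p = 0.979). Ghr, the growth hormone receptor gene, stood at 11.9, 18.1, 17.7 and 9.55 CPM in sIVs libraries 2 to 5, against 9.17 to 11.4 CPM in PBS, 0.52 ± 0.21 on the log2 scale (SE, edgeR adjusted p = 0.285), and 0.10 once sIVs libraries 3 and 4 were left out. Ins1 had no counts in any library, and Ins2, Igfals and Irs4 were, like Igfbp1, below the filter.

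Igfbpl1, a gene related to the binding proteins and known for a role in ganglion cell axon growth, stood at 1.67, 2.92, 3.04 and 3.10 CPM in sIVs libraries 2 to 5, against 1.61, 1.54, 0.83 and 1.07 CPM in PBS libraries 1 to 4. All sIVs libraries lay above PBS, library 2 only just. Its log2 fold change was 1.08 ± 0.29 (SE, edgeR adjusted p = 0.178), and leaving out sIVs libraries 3 and 4 gave 0.91. Igfbp6, which prefers IGF-2, stood at 1.31 to 2.15 CPM in sIVs and 1.35 to 2.22 CPM in PBS (edgeR adjusted p = 0.944).

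Genes that act on the binding proteins gave small differences. Htra1, a secreted serine protease gene, stood at 109, 149.8, 149.5 and 133 CPM in sIVs libraries 2 to 5, against 121, 108, 108 and 90.9 CPM in PBS libraries 1 to 4 (log2 fold change 0.34 ± 0.12 SE, edgeR adjusted p = 0.249). Pappa2, which encodes a protease of IGFBP-3 and IGFBP-5, stood at 20.5, 21.1, 20.5 and 16.8 CPM in sIVs libraries 2 to 5, against 21.6, 23.0, 22.6 and 25.04 CPM in PBS libraries 1 to 4. Every sIVs library lay below every PBS library for Pappa2 (log2 fold change -0.23 ± 0.10 SE, edgeR adjusted p = 0.319). Stc1 and Stc2, which encode stanniocalcins that inhibit PAPP-A, had log2 fold changes of 0.20 ± 0.10 and 0.37 ± 0.20 (SE; adjusted p by edgeR 0.383 and 0.405), the groups of Stc1 not overlapping, and Pappa itself one of 0.20 ± 0.15 (SE, edgeR adjusted p = 0.558). Of the RNA-binding protein genes Igf2bp1, Igf2bp2 and Igf2bp3 and the receptor adaptor gene Grb10, 0 of 4 had an unadjusted p under 0.05, as given by edgeR with adjusted p from 0.439 to 0.733.

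Downstream of the receptors, the 3 genes of smallest p in the positive direction were Eif4ebp1, Akt2 and Socs3. Eif4ebp1, a repressor of translation that mTOR inactivates, stood at 2.68, 7.52, 9.33 and 6.62 CPM in sIVs libraries 2 to 5, against 1.67, 2.18, 2.50 and 1.78 CPM in PBS libraries 1 to 4. Its groups did not overlap, though sIVs library 2 lay close to PBS library 3, and its log2 fold change was 1.69 ± 0.35 (SE, edgeR adjusted p = 0.153). Socs3, a feedback inhibitor of cytokine receptors that can also dampen insulin signalling, stood at 54.8, 90.7, 91.3 and 102 CPM in sIVs libraries 2 to 5, against 39.9, 38.2, 14.2 and 9.46 CPM in PBS libraries 1 to 4. The PBS libraries of Socs3 were themselves in 2 levels, and its log2 fold change was 1.73 ± 0.42 (SE, edgeR adjusted p = 0.167). Akt2, a kinase gene of the insulin pathway, stood at 88.3, 101, 104 and 103 CPM in sIVs libraries 2 to 5, against 77.7, 79.9, 80.7 and 73.6 CPM in PBS libraries 1 to 4 (log2 fold change 0.35 ± 0.07 SE, edgeR adjusted p = 0.158). Without sIVs libraries 3 and 4 the log2 fold changes were 1.199 for Eif4ebp1, 1.62 for Socs3 and 0.29 for Akt2.

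In the negative direction the smallest p-values included those of Foxo6 and Pik3ca. Foxo6, a transcription factor gene, and Pik3ca, a catalytic subunit gene of phosphoinositide 3-kinase, overlapped between groups, with Foxo6 at -0.41 ± 0.22 and Pik3ca at -0.18 ± 0.10 on the log2 scale (SE; adjusted p by edgeR 0.403 and 0.426). The core kinase gene Mtor, named after its values were seen, had a 95% interval of -0.14 to 0.16 (edgeR adjusted p = 0.959).

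**Figure D5:**
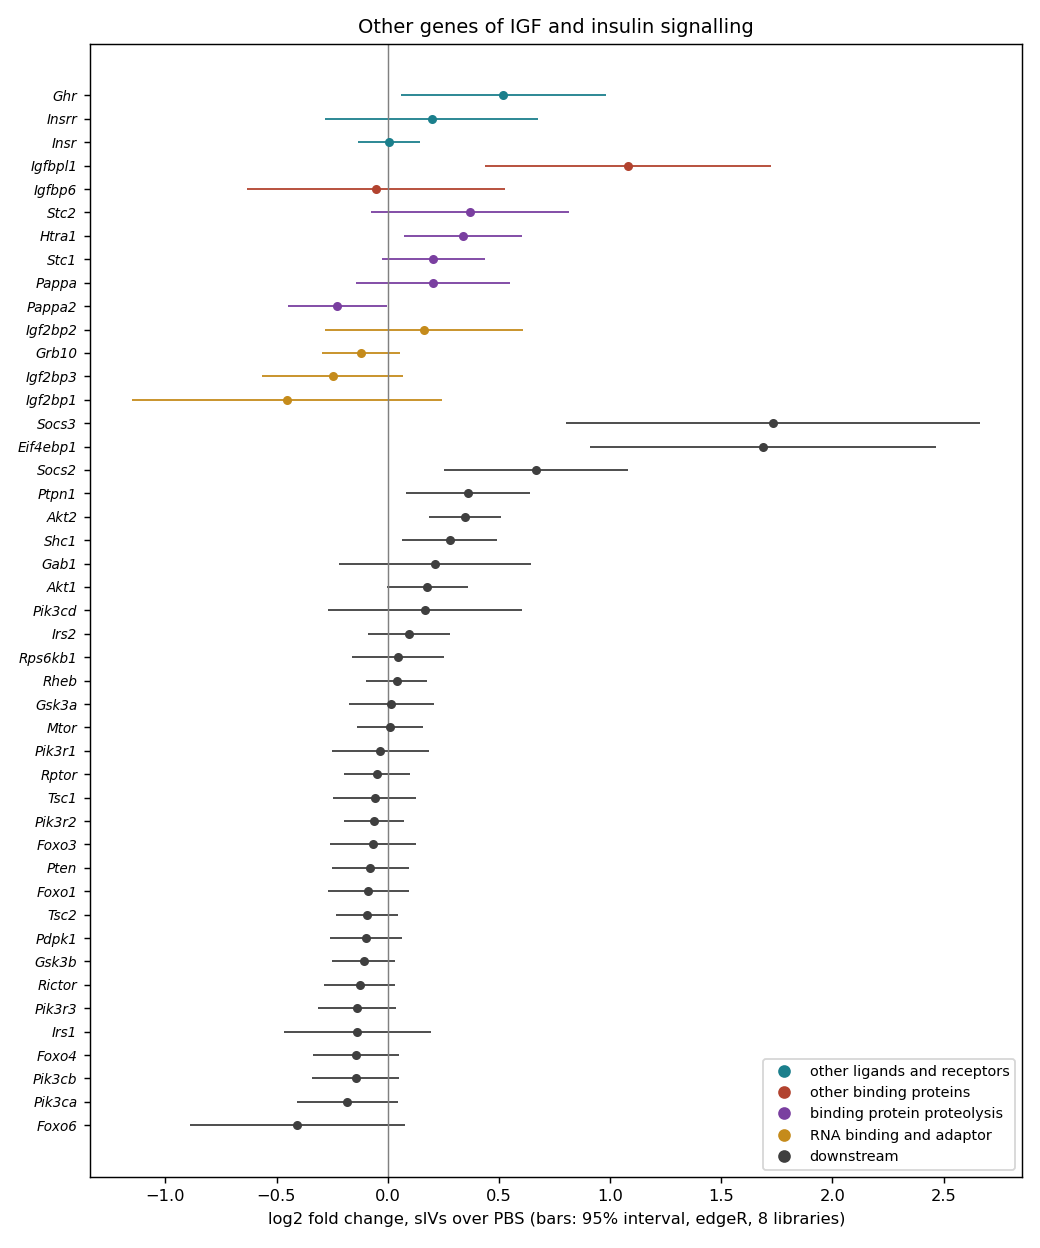
Log2 fold change of sIVs over PBS with its 95% interval (edgeR, 8 libraries) for tested genes of the signalling list, grouped by role. Socs3 at 1.73, Eif4ebp1 at 1.69 and Igfbpl1 at 1.08 lie farthest to the right, and the other genes shown lie between -0.45 and 0.67.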

How the data were processed

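Per the labels' protocols, RNA was taken from retina with TRIzol and made into strand-marked poly(A) libraries, sequenced as paired ends. The submitters' processing notes name the mm10 build; aligner, counter, annotation release and strand setting: not given in the sources used here. Deposited by the authors were a count table (whole numbers, not normalised) and an FPKM table of the same 54532 genes, 1 column per library. Within each library the deposited FPKM equalled the count per kilobase and library size times 1 constant, 0.930 to 1.03. All 9 members had the deposited coordinates in GENCODE M21 (GRCm38).

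Genes were filtered by filterByExpr (17725 kept), scaled by TMM and tested with edgeR 4.0.16 (glmQLFit, glmQLFTest, R 4.3.3) with group as the only term, over 4 sIVs and 4 PBS libraries. P-values were Benjamini-Hochberg adjusted over all tested genes, with a threshold of 0.05. CPM were taken on TMM-scaled library sizes. Standard errors and 95% intervals come from the F statistic. Correlations use log2 CPM with a prior count of 2. No 2 libraries agreed within sampling noise (lowest chi-square per gene 3.44). Alternatives were DESeq2 1.42.0, limma 3.58.1 (voom with and without sample weights, and log2(FPKM + 0.1) and log2(FPKM + 1)), other scalings and filters, left-out libraries, replicate blocks and a threshold of 0.1.

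The members and lists were chosen with earlier results of these data known. The text names all 9 members, tested genes of the other ligand, receptor, binding protein, protease and adaptor groups, the 3 downstream genes of smallest p in each direction (1 of them is not reported here), and for each member the 2 protein-coding genes of at least 5 CPM with the highest Pearson r. Genes overlapping a member were added because they share its bases.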

Additional observations from a re-analysis of the deposited data

How the results depend on the processing

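Across 22 alternatives, Igf2 was negative and Igfbp2, Igfbp3 and Igfbp7 were positive in all, and the other 5 members changed sign in at least 1. Igfbp7 ranged from 0.37 to 0.59 on the log2 scale (adjusted p from 0.00735 to 0.434). It passed with DESeq2 (0.51), with limma-voom with sample quality weights (0.59) and without sIVs library 2. The weighted fit also passed Igfbp2 (0.48) and Igf1r (-0.20). Members past the threshold were then 1 and 3, signalling list genes 5 and 15, and all genes 571 and 4973. Without a low-count filter edgeR called 2 signalling list genes and 152 genes in all, and at a threshold of 0.1 it called 11 genes in all. Without sIVs libraries 3 and 4, Igf1 (-0.19), Igf1r (0.027), Igf2r (-0.053), Igfbp4 (-0.10) and Igfbp5 (-0.19) changed sign, and 3 genes in all passed; the cause was not tested. Leaving out 1 library at a time, values ran from 0.39 to 0.59 for Igfbp7, -0.069 to 0.16 for Igf1 and -0.036 to 0.22 for Igfbp4. Calls then ran from 0 to 1 for members, 0 to 7 for the signalling list and 0 to 1331 for all genes. Every call came without sIVs library 2, the sIVs library most like PBS. Same-numbered libraries did not deviate together (r from -0.06 to 0.05 by title number, -0.07 to 0.10 by biosample number). With the replicate block by biosample number Igfbp7 stood at 0.51 and with the block by title number at 0.53. Igfbp3 stood at 0.25 with the block by title number and at 0.29 without it in the same 6 libraries. With either block 0 members passed and no member changed sign. Scaling by library totals moved the median of all genes by 0.08. Igf2 had low counts, at 10 to 28 per library.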

Other observations

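The genes most like each member in pattern were read from 11942 other protein-coding genes by Pearson r of log2 CPM over the 8 libraries, as a description with no test. For the binding protein genes they were Vamp8 (0.98) and Cck (0.96) for Igfbp7, Txn1 (0.98) and Snx1 (0.97) for Igfbp2, and Ppp1r15a (0.98) and Atad3a (0.96) for Igfbp3. For Igfbp4 they were Tspan12 (0.99) and Nova1 (0.96), and for Igfbp5 Wipf3 (0.98) and Ptk2b (0.97). For the ligand genes they were Nfatc2 and Pdcd4 (0.97 each) for Igf1 and Cbx3 (0.97) and Cbll1 (0.95) for Igf2. For the receptor genes they were Srrm2 (0.99) and Ranbp2 (0.98) for Igf1r, and Cs and Racgap1 (0.96 each) for Igf2r.

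Within the family, Igf1 varied most closely with Igfbp5 (r = 0.76), and Igf1r ran against Igfbp4 (r = -0.75) and Igfbp2 (r = -0.72). Igf2 had a negative r with 7 of the other 8 members, from -0.41 with Igf1 to -0.75 with Igfbp7, and a positive one with Igf1r (0.67). These values describe 8 libraries and were not recomputed without single libraries.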
